A study of Mus musculus with 4 samples.

Results

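The peaks described here are those that anti-FLAG chromatin immunoprecipitation of CHD8 gave in 3 windows of the mouse genome, build mm9, which were taken by position around genes of the p53 pathway. The windows were 69380000 to 69420000 on chromosome 11 for Trp53, 117110000 to 117165000 on chromosome 10 for Mdm2 and 29200000 to 29250000 on chromosome 17 for Cdkn1a. They held 14 of the 22706 peaks of ChIP replicate 1 and 19 of the 31002 peaks of ChIP replicate 2, 33 peaks in all. No window was without a peak in either list. The cells were mouse embryonic stem cells kept on gelatin in 2i medium, in which both copies of Chd8 carry a C-terminal FLAG tag at the native locus. The series held 2 ChIP samples, made with the M2 antibody against FLAG, and 2 input samples without antibody, all of 1 condition. The labels name no untagged line carried through the anti-FLAG ChIP, and they do not say whether the replicates were separate cultures, so the spread between them may be technical.

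CHD8 belongs to the CHD family of remodellers, which use ATP to move nucleosomes, and has been described to bind p53 and to bring linker histone H1 to p53 target genes. Trp53 encodes p53, a transcription factor that is activated by DNA damage and other stress. Mdm2 encodes the ubiquitin ligase that marks p53 for degradation and is itself a target of p53, which closes a feedback loop. Cdkn1a encodes p21, an inhibitor of cyclin-dependent kinases and the best known p53 target in cell-cycle arrest. None of the values here measures p53 binding or the RNA of these genes.

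The promoters of the 3 genes differ in base composition and in motifs, and their letters are shown because the windows were taken around these genes. RefSeq gives 1 start each for Trp53 and Mdm2 and 2 starts for Cdkn1a, all matched by symbol. The 250 bases before each start are printed 5′ to 3′ on the gene's strand, from build GRCm38.p6. That build differs from the mm9 of the peaks, so these positions cannot be set against the peaks and no peak was assigned to a start. Capitals mark exact matches, on either strand, to the p53 half-site, to ACATGT (the centre of many half-sites, which can overlap them), to CCGGAAG (a core bound by ETS factors) and to GGGCGG (the GC box). ACATGT was added to the search after the Cdkn1a sequence had been read.
Trp53, chr11:69580109-69580358, plus strand: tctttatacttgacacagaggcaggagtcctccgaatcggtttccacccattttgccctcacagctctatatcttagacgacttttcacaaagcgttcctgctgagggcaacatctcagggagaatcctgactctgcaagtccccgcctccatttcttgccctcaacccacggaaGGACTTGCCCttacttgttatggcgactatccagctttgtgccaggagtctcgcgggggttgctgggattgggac
Mdm2, chr10:117710759-117711008, minus strand: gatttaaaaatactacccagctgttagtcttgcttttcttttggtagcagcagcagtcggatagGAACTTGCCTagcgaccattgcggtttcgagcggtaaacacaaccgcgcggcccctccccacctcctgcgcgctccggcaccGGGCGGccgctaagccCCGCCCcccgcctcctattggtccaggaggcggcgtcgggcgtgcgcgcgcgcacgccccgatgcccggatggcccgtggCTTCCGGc
Cdkn1a start 1, chr17:29090729-29090978, plus strand: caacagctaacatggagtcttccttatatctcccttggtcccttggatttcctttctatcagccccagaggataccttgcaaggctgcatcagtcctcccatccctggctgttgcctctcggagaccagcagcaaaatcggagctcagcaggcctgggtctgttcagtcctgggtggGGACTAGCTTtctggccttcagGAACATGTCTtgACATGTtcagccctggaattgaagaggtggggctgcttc
Cdkn1a start 2, chr17:29093519-29093768, plus strand: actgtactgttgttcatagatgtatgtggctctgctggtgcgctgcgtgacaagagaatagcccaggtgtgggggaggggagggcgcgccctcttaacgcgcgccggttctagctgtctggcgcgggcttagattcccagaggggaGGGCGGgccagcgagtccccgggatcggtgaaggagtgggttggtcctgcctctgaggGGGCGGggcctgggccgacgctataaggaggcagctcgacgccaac

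The Mdm2 promoter was the richest in CpG of these 4, with 29 CpG dinucleotides in 250 bases, more than 93.2% of the 32851 RefSeq promoters. Cdkn1a start 2 held 19 and Trp53 held 9, against a median of 6 over all promoters. Cdkn1a start 1 held 2, and only 18.8% of all promoters held fewer. This sequence carried 2 p53 half-site matches, and 0.26% of all promoters had at least as many. It also carried 2 matches to ACATGT, and 0.25% of all promoters had at least as many. That motif was added after this sequence had been read, so its share is no independent measure of rarity. The half-site that begins 51 bases before the start overlaps the ACATGT at 49 bases. Trp53 and Mdm2 had 1 half-site match each, which 7.13% of all promoters had at least once, and Cdkn1a start 2 had none. Mdm2 was alone among the 4 in holding CCGGAAG, read on the other strand, which occurs in 6.91% of all promoters. Mdm2 and Cdkn1a start 2 held 2 GC boxes each, and 16.7% of all promoters held 2 or more. A match describes the letters and is not evidence of a bound site.

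CHD8 was found at all 3 loci in both replicates, in different forms. The Trp53 window held 1 strong and wide region with small peaks around it, the Mdm2 window held 1 strong region almost alone, and the Cdkn1a window held many peaks of low to middle strength. Fold enrichment is the authors' value for a peak, the linear ratio of reads at its summit over the caller's local background. The strongest fold at Trp53 was 13.7 in replicate 1 and 14.7 in replicate 2, 14.2 ± 0.69 (SD, n = 2). At Mdm2 it was 8.79 and 12.6, 10.7 ± 2.68 (SD, n = 2), and at Cdkn1a 6.08 and 6.86, 6.47 ± 0.55 (SD, n = 2). The lists scale their folds differently, and the SDs include that difference. In this order the replicate values of neighbouring loci did not overlap. Poisson intervals of the counts (95%) did overlap between Trp53 and Mdm2 in both replicates, and between Mdm2 and Cdkn1a in replicate 1 but not in replicate 2. Those of Trp53 and Cdkn1a were apart in both replicates. No test was made between loci, since each has 2 values. Each value is the highest of its window, and the windows differ in their number of peaks.

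**Figure D1:**
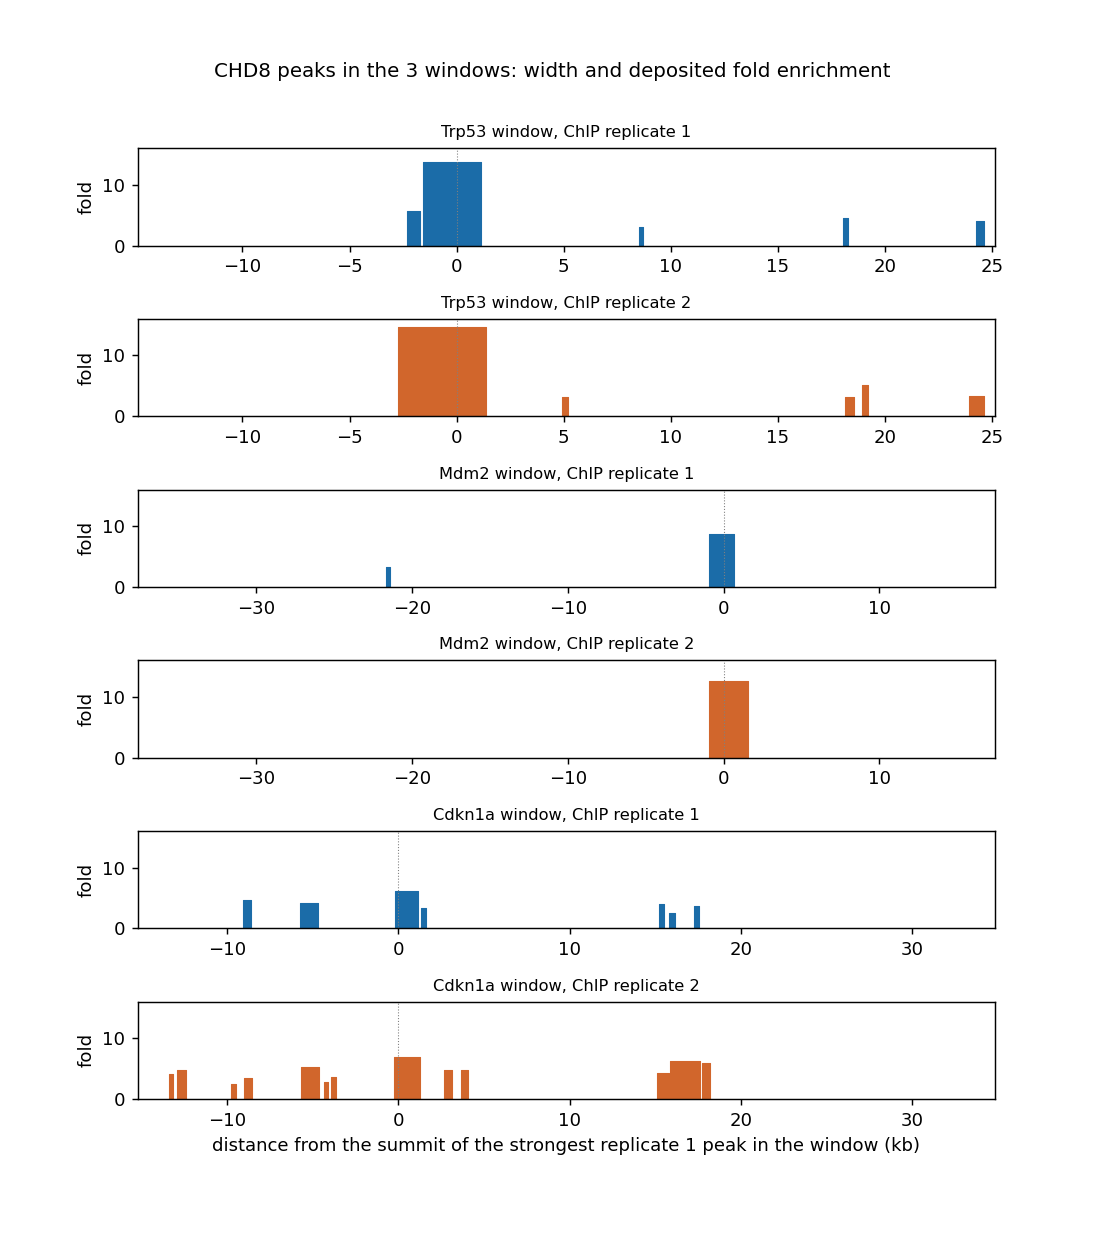
Peaks of each ChIP replicate in the 3 windows, drawn from their start to their end along the distance from the strongest replicate 1 summit (kb), with the deposited fold enrichment as height. The Trp53 and Mdm2 windows each show 1 tall block, at folds of 13.7 and 14.7 and of 8.79 and 12.6, and no peak in the Cdkn1a window exceeds 6.86.

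At Trp53, CHD8 covered a stretch of 4146 bp on chromosome 11 from 69392125 to 69396270. Replicate 2 called it as 1 peak, and just 0.106% of that list was at least as wide. Replicate 1 called most of this stretch, from 69392537 to 69395994, as 2 peaks with 97 bp between them. They were 69392537 to 69393185 with a fold of 5.74 (95% exact Poisson interval 3.85 to 8.25) and 69393283 to 69395994 with 13.7 (10.5 to 17.6). The larger was 2712 bp wide, a width that 0.405% of the replicate 1 list reached. The replicate 2 peak had a fold of 14.7 (11.7 to 18.2). The intervals of the 13.7 and 14.7 folds overlap, and like all intervals below they cover counting error only. For folds this is the error of the ChIP summit reads, with the local background held fixed. With 60 reads in replicate 1 and 81 in replicate 2, the summits lay 82 bp apart, against a median of 95 bp over all shared regions. By −log10 q, the deposited significance, the peak stood at rank 834 in replicate 1 and rank 720 in replicate 2, above 96.2% and 97.7% of the lists. Control coverage, here the local background that the deposited fold and p-value imply, was at the genome-wide background in replicate 1 and 1.18 times that level in replicate 2.

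The other Trp53 peaks had folds of 3.11 to 5.12, and some of them were found in both replicates. One region at 69412938 to 69413416 was met in both lists, with folds of 4.51 and 3.20 on 19 and 21 reads, and summits 213 bp apart. Another at 69418806 to 69419501 had folds of 4.05 and 3.34 on 17 and 22 reads, and summits 337 bp apart. At both regions the replicate 2 control coverage was 1.57 times its genome-wide background, while in replicate 1 it was at the background. Its part in the lower replicate 2 folds was not tested, and the lists scale their folds differently. Summit reads were not lower in replicate 2 at either region. Replicate 1 alone had a peak at 69403393 to 69403592 with a fold of 3.15 (1.78 to 5.23), on 13 reads. Replicate 2 alone had one at 69399821 to 69400081 with 3.11 (1.88 to 4.89) and one at 69413831 to 69414078 with 5.12 (3.38 to 7.47), which lay 675 bp from the nearest replicate 1 peak. Peaks covered 10.4% of the window in replicate 1 and 14.3% in replicate 2. Neighbours at the 3 loci were looked up among protein-coding genes only, so a non-coding gene could lie nearer. In that order, Trp53 stands between Wrap53 and Atp1b2 in the gene table. Wrap53 encodes a Cajal body and telomerase protein and shares its upstream region with Trp53, and Atp1b2 encodes a sodium pump subunit. To which of these genes a peak belongs was not tested.

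At Mdm2, CHD8 formed 1 region on chromosome 10 from 117146635 to 117149137. Both lists start it at the same base, and it ends at 117148286 in replicate 1, 1652 bp wide, and at 117149137 in replicate 2, 2503 bp wide. Of the lists, 5.19% and 1.58% were at least as wide. The replicate 1 fold was 8.79 (6.28 to 12.0) and the replicate 2 fold 12.6 (9.68 to 16.1), on 38 and 61 reads, and these intervals overlap. The summits were 85 bp apart, and control coverage was at the genome-wide background in both. The peak ranked 2643 and 1439, above 88.0% and 95.2% of the lists. The single other peak of the window, 117125932 to 117126184 in replicate 1, had a fold of 3.28 (1.92 to 5.27) and lay 20451 bp from the nearest replicate 2 peak.

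The peaks of the Mdm2 window were followed at lower coordinates by a long stretch without peaks, which bordered the strong region in replicate 2 and the weak peak in replicate 1. From the first peak in the window to the next one at lower coordinates, replicate 1 had 256 kb without a peak and replicate 2 had 297 kb. Of all gaps between neighbouring peaks, 9.31% and 5.73% were at least as long, and the median gap was 23.3 kb and 14.5 kb. On chromosome 10 alone the shares were 9.29% and 5.83%. On the other side the nearest peaks outside the window began 18407 and 18493 bp beyond it, with folds of 5.41 and 4.11. Among protein-coding genes, the gene table places Cpm, which encodes a membrane carboxypeptidase, and Slc35e3, of a solute carrier family, on either side of Mdm2.

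At Cdkn1a, CHD8 peaks are described as a pair of groups, split at the longest gap between 2 peaks of the window. That gap was 13567 bp long in replicate 1 and 11029 bp in replicate 2. The median gap between neighbouring peaks was longer, 23.3 kb and 14.5 kb over the whole lists, so a stretch of this length is not unusual. The group at lower coordinates held 4 peaks in replicate 1 and 10 in replicate 2, and the other group held 3 in each. The strongest region of the window was in the larger group, at 29214953 to 29216445. In replicate 1 its fold was 6.08 (4.05 to 8.81) on 26 reads, and in replicate 2 it was 6.86 (4.90 to 9.36) on 37 reads. It ranked 6196 and 6518, above 71.4% and 78.8% of the lists, as the best of 7 and of 13 peaks in the window. Its summits were 817 bp apart, the farthest among the shared regions of the 3 windows.

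Also in the group at lower coordinates, a region at 29209454 to 29210542 had folds of 4.10 and 5.24, on 19 and 25 reads, with summits 7 bp apart. A region at 29206147 to 29206653 had folds of 4.67 and 3.46, on 21 and 18 reads, and was the single shared region of the 3 windows with fewer reads in replicate 2. The replicate 1 peak without a partner, 29216497 to 29216831, had a fold of 3.38 and missed a replicate 2 peak by 52 bp. The 7 replicate 2 peaks of this group without a partner had folds of 2.49 to 4.71. At 2 of them, 29205404 to 29205704 with a fold of 2.49 and 29210866 to 29211072 with 2.80, control coverage was 2.36 times the genome-wide background, the highest at any of the 33 peaks. Its part in those calls was not tested.

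The group at higher coordinates ran from 29230399 to 29232733 in the first list and from 29230292 to 29233380 in the second. Replicate 1 covered 942 bp of it and replicate 2 covered 2897 bp. A first shared region at 29230292 to 29230974 had folds of 4.02 (2.47 to 6.23) and 4.34 (2.97 to 6.15), with summits 3 bp apart, the nearest pair in the 3 windows. The next, at 29231021 to 29232801, joined 2 replicate 1 peaks with folds of 2.49 and 3.61 to 1 replicate 2 peak of 1743 bp with a fold of 6.32 (4.36 to 8.91). The third replicate 2 peak, 29232910 to 29233380 with 5.92 (4.03 to 8.43), lay 177 bp from a replicate 1 peak. Beyond this group the window was empty, and the next peak outside it began 10744 bp past the window in replicate 1 and 42151 bp past it in replicate 2. Among protein-coding genes, the gene table places Cdkn1a between Srsf3, which encodes a splicing factor, and Rab44, which encodes a GTPase of the Rab family. Non-coding genes were left out of this order. At the opposite edge of the window, at lower coordinates, a replicate 2 peak 1796 bp outside it had a fold of 3.71 and one 1786 bp inside it had 4.11.

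**Figure D2:**
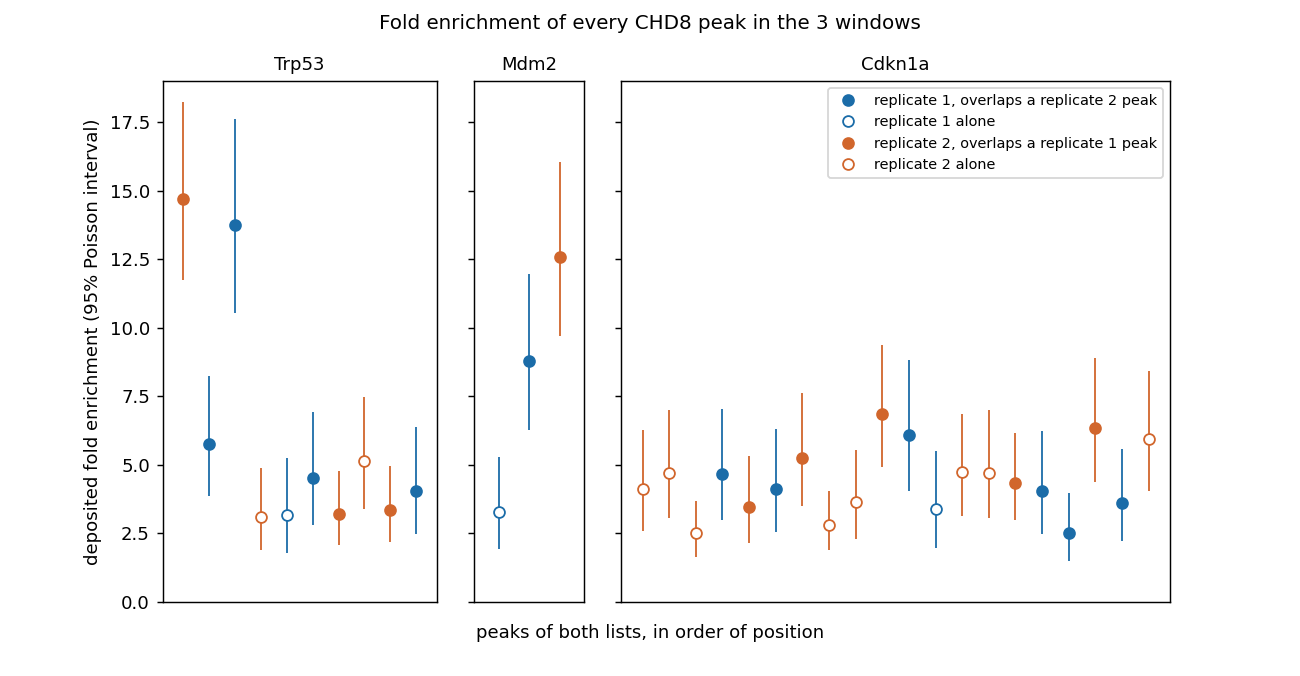
Deposited fold enrichment of all 33 peaks in order of position within each window, with 95% exact Poisson intervals of the summit reads as bars; filled points overlap a peak of the other replicate and open points do not. The 13 open points reach at most 5.92, and the highest points of the Trp53 and Mdm2 windows are filled.

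The strongest peak of each window was found in both replicates, and 13 of the 33 peaks, none above a fold of 5.92, in 1 alone. A partner, meaning an overlap of 1 bp or more with a peak in the other list, was found for 11 of the 14 replicate 1 peaks, where 89.1% of the whole list had one. Of the 19 replicate 2 peaks, 9 had a partner, where 60.9% of the list had one. They formed 9 shared regions, 3 at Trp53, 1 at Mdm2 and 5 at Cdkn1a. Among them 7 held 1 peak of each replicate, as 84.3% of all 17867 shared regions did. The replicate 2 peaks without a partner numbered 2 at Trp53, 0 at Mdm2 and 8 at Cdkn1a. Summit reads had a median of 18.5 and 24 over the peaks of the windows, and of 21 and 24 over the whole lists. Where a replicate 2 peak had no partner, a signal under the calling threshold in replicate 1 cannot be told apart from none.

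Summit reads per ChIP depth were higher in replicate 2 at 8 of the 9 shared regions, and 88.4% of all shared regions were higher there. The ChIP libraries held 3.44 and 3.56 reads per 200-bp window. The ratio of replicate 2 to replicate 1 was 1.30 (95% exact binomial interval 0.92 to 1.85) at the strong Trp53 region and 1.55 (1.02 to 2.39) at the Mdm2 region. It was 1.37 (0.81 to 2.36) at the strongest Cdkn1a region. The highest was 1.61 (0.87 to 3.06), at the Cdkn1a region from 29231021, and the lowest was 0.83 (0.42 to 1.63), at 29206147. The median over all shared regions was 1.25 and lies within all 9 intervals. A two-sided exact binomial test around that median, adjusted over all 17867 regions, called 0 of the 9 and 0% of all regions. At an unadjusted p under 0.05 it found 232 regions or 1.3%, none of them in the windows, where the lowest exact binomial p was 0.20. This test compares 2 libraries, and a p above the threshold does not show that the replicates are equal. Peaks found in 1 list alone did not enter it, and it was centred on the regions' own median. Few calls therefore do not show that the lists match.

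**Figure D3:**
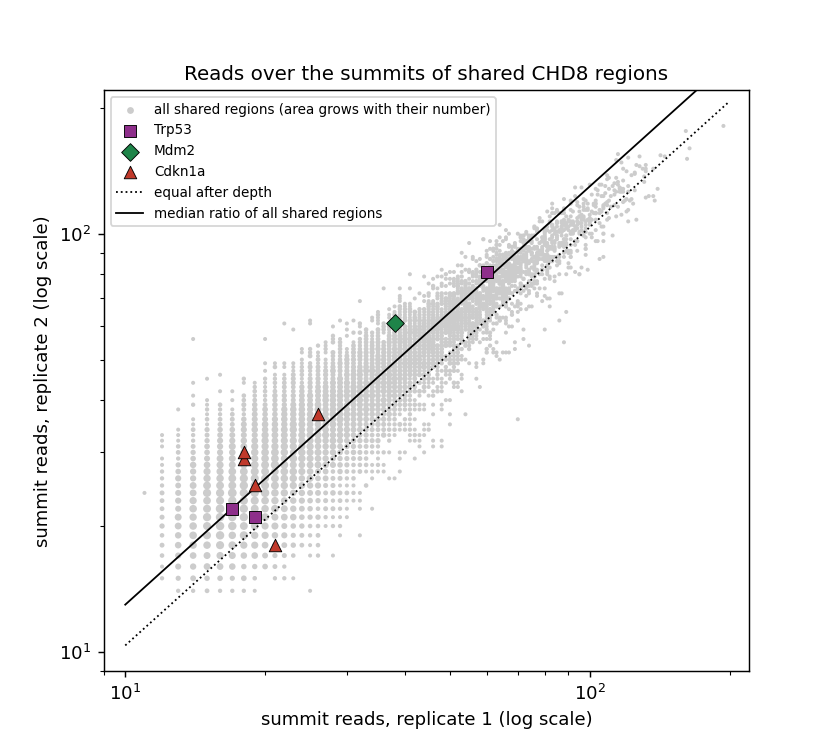
Reads over the summit in replicate 1 (x axis, log scale) and replicate 2 (y axis, log scale) for all shared regions (grey) and for the 9 of the Trp53, Mdm2 and Cdkn1a windows (symbols). Of these 9, 8 lie above the dotted line of equal reads after depth; the Trp53 square at 60 and 81 reads and the Mdm2 diamond at 38 and 61 stand above the other 7.

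A window of this size holds a peak less often than not. On chromosome 11, 31.5% of 40-kb windows in replicate 1 and 37% in replicate 2 held at least 1 peak. On chromosome 10, 24.9% and 29.8% of 55-kb windows did, and on chromosome 17, 27.2% and 31.1% of 50-kb windows. The 5 peaks of the Trp53 window in each replicate were reached by 1.85% and 3.94% of such windows. In replicate 1 the 2 peaks of the Mdm2 window were reached by 12.7%, and its 1 peak in replicate 2 is the share with any peak. The 7 and 13 peaks of the Cdkn1a window were reached by 0.868% and 0.326%. By bases under peaks, 1.04% and 1.11% of windows had as much as Trp53, 5.94% and 7.33% as much as Mdm2, and 2.01% and 0.49% as much as Cdkn1a. Windows on a regular grid include gene-poor sequence, whereas the 3 windows were taken around known genes, so these shares are a background and not a test.

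**Figure D4:**
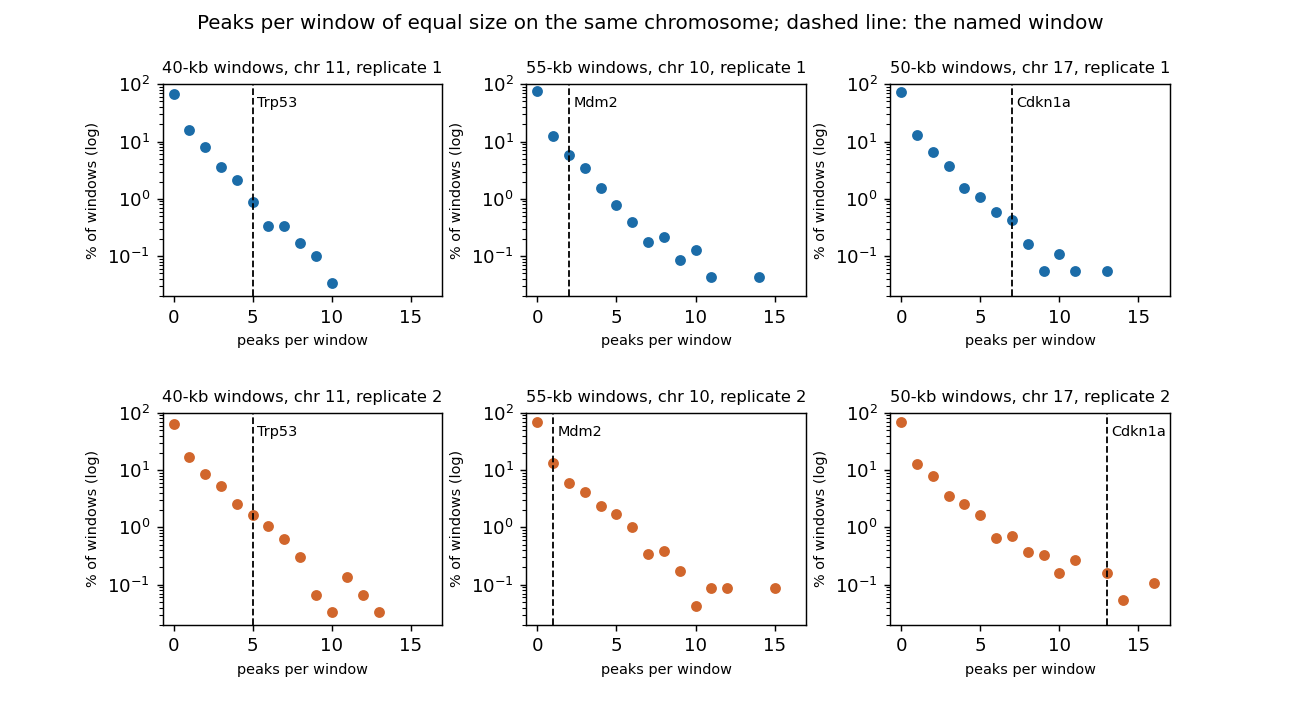
Share of windows of the same size on the same chromosome (%, log scale) by their number of peaks, for each replicate; counts that no window had are not drawn, and the dashed line marks the window of the named gene. The Cdkn1a lines, at 7 and 13 peaks, stand far to the right, and the Mdm2 lines, at 2 and 1, stand near the left.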

How the data were processed

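The authors deposited 1 peak list of 10 columns per ChIP sample, called per sample; no table of the inputs was analysed here. Bowtie2 2.1.0, MACS2 2.1.1 and mm9 are named per the submitters' processing notes; the control used for each list is not given in the sources used here. Per the labels' protocols, libraries were tagmented on beads. The deposited fold is a linear ratio, significance is deposited as −log10 p and −log10 q, and the deposited score is 10 times −log10 q cut to a whole number.

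Peaks that overlap a window by 1 bp were taken, all of them were named, and positions are 1-based. Summit reads and local background were solved from fold and p with the caller's formulas, in which 1 is added to reads and background; all peaks were solved within 0.002 in log10 p. In replicate 2 the ChIP reads are scaled by 0.714, and folds of the lists are therefore not on 1 scale. On simulated lists of 22706 and 31002 peaks, 100.0% and 99.997% of the read numbers were recovered. Background counts as above the genome-wide level from 1.01 times.

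Summit reads of shared regions (connected overlapping peaks of both lists, each represented by its best −log10 q) were compared by exact binomial test with Benjamini-Hochberg adjustment. Equal windows were laid end to end over each chromosome, starting at its first peak. Without an mm9 annotation, other p53 pathway genes were not analysed. The loci and tests were chosen with earlier results of these data known. Python 3.11.15, numpy 2.4.6, pandas 2.3.3, scipy 1.17.1 and matplotlib 3.10.9 were used.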

Additional observations from a re-analysis of the deposited data

How the results depend on the processing

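Of 50 alternative values, 35 stayed within 1.5 times the reported count, or within the replicate spread or interval of the value, and 15 moved. For the strongest folds, a value with 1 replicate left out always lies within the SD of 2 replicates. Those alternatives are among the 35 and could not have moved. Counts of peaks are means over both lists. With only peaks of −log10 q of 5 or more, the Trp53 window kept 2.5 of 5 peaks and 1 shared region, and the Cdkn1a window kept 6 of 10 peaks and 3 shared regions. With the 50% of each list of higher score, 2 peaks were left at Trp53 and 3.5 at Cdkn1a. Windows widened by 50 kb on each side held 10 peaks at Trp53, 2.5 at Mdm2 and 19.5 at Cdkn1a. Under 50% reciprocal overlap, 3 of the 5 Cdkn1a regions were shared. Over all autosomes the share of windows with a peak was 21.0% and 24.9% for 40 kb and 24.3% and 28.4% for 50 kb. Around the plain depth ratio, 1 of all shared regions passed the adjusted threshold and none in the windows; at Mdm2 the exact binomial p was 0.035 and the adjusted p 0.74. Leaving out each replicate gave 5 to 5 peaks at Trp53, 1 to 2 at Mdm2 and 7 to 13 at Cdkn1a. No paired analysis was possible because the input samples, which share replicate numbers with the ChIP samples, came with no table.

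Read numbers limit the weak peaks: 13 reads gave a fold of 3.15 with an interval of 1.78 to 5.23.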
